A study of Mus musculus with 6 samples.

Results

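The Magea genes of the mouse were followed on 6 Illumina bead arrays of embryonic stem cells with and without an intact allele of Lsd1 (current symbol Kdm1a), a histone demethylase that acts on lysine 4 of histone H3. The members were all probes whose annotated symbol was Magea followed by a number, which gave 13 probes for 8 genes out of 45281 probes on the array. These were Magea1, Magea2, Magea3, Magea4, Magea5, Magea6, Magea8 and Magea10. Of the 13 probes, 6 passed the filter on weak signals (a detection p-value under 0.05 on at least 3 of the 6 arrays), 1 for each of 6 genes. Magea2, Magea4, Magea5, Magea8 and Magea10 were picked out with the genotype comparison already known, because several of them stood among its large rises. The Δ3/Δ3 against Lox/Δ3 values of the family are therefore given as a description, with no test. Magea3 also passed the filter and is described with them.

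All cells were of the E14 embryonic stem cell line of strain 129/Ola. Per the labels, Δ3/Δ3 cells carry a deletion of exon 3 on both Lsd1 alleles. Lox/Δ3 cells, the comparison group, carry 1 deleted allele and 1 allele named Lox, so both groups share a deleted allele. Each genotype has 3 arrays, called biological replicates in the series' design text, and nothing says whether they were separate clones or cultures, so their spread may be in part technical. The raw Kdm1a signal was 1624, 1047 and 1339 on Δ3/Δ3 arrays 1, 2 and 3 and 5352, 3397 and 4026 on the Lox/Δ3 arrays. All Δ3/Δ3 values lay below all Lox/Δ3 values.

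Magea genes belong to the melanoma antigen family, whose human relatives are known as cancer-testis antigens: they are normally expressed in male germ cells, are silent in most other tissues, and are often switched on in tumours. Their proteins share a MAGE homology domain, through which human MAGE-A proteins bind RING-type ubiquitin ligases such as TRIM28. In somatic cells, human MAGEA promoters are kept silent in large part by methylation of their CG dinucleotides. The array measures transcript only, so neither DNA methylation nor histone marks at these genes were measured.

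All 8 Magea genes lie on chromosome X in the RefSeq annotation of assembly GRCm38.p6. In the order of that annotation, Magea4 and Magea10 form one locus and Magea6, Magea3, Magea8, Magea2, Magea5 and Magea1 another. Neither deposited table names a build, so RefSeq served for names, gene order and promoter sequence. The promoter windows of 4 genes are printed to show how alike some of these starts are and how many CG dinucleotides they hold. Each is 300 bases long, from 250 bases before to 50 bases after the annotated start, 5′ to 3′ on the gene's own strand, which is the minus strand for all 4. CG dinucleotides are in capitals. The windows are chrX:155033243-155033542 for Magea2, chrX:154995801-154996100 for Magea8, chrX:155061504-155061803 for Magea5 and chrX:72386809-72387108 for Magea10 (RefSeq, GRCm38.p6).
Magea2: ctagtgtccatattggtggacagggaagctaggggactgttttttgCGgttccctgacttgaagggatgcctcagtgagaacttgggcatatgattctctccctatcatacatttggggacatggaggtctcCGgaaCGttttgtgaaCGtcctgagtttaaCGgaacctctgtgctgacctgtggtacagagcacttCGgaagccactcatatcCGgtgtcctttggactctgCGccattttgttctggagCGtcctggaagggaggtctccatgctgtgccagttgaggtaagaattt
Magea8: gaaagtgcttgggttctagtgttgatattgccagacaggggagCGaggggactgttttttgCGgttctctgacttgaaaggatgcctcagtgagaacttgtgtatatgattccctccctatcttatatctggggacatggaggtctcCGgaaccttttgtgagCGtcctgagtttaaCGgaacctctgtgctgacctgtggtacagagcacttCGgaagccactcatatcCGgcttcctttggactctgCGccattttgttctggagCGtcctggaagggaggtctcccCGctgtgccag
Magea5: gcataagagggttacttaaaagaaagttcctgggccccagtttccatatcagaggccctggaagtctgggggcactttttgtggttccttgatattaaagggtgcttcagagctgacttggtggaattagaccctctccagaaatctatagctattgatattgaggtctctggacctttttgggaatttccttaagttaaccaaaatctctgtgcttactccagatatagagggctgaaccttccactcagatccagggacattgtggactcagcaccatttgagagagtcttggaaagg
Magea10: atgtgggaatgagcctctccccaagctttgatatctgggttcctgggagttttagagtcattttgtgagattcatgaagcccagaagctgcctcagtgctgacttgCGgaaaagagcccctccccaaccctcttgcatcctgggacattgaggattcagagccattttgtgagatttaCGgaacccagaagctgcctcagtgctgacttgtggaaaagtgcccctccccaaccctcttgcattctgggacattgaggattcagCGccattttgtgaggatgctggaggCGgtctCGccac

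The Magea2 and Magea8 windows were nearly the same sequence, with 264 identical bases over 285 aligned columns and no gap (0), an identity of 92.6%. The Magea5 window matched that of Magea2 at 66.3% and that of Magea8 at 64.5%, and the Magea10 window matched these 3 at 59.0% to 60.1%. CG dinucleotides numbered 10 for Magea8, 9 for Magea2, 5 for Magea10 and 0 for Magea5, where the median over 32841 promoter windows of the same length was 7. The windows of the other family members held 2 (Magea4), 1 (Magea1), 1 (Magea6) and 0 (Magea3). For Magea5, Magea4, Magea3 and Magea6 the annotated start used for the window lies 1002 to 9959 bases inside the longest annotated gene span, so another start could be in use and their counts describe these windows only.

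Motifs were searched on both strands. The letters GCCATNTTG, the core of the sequence bound by the zinc finger protein YY1, occurred in 2.51% of all windows and in 3 of the 8 Magea windows. They began at base 236 of the Magea2 window, at base 251 of the Magea8 window and at bases 161 and 265 of the Magea10 window, counted from 1 at the 5′ end. The Magea5 window did not hold these letters. This motif was chosen after the sequences had been read, and a match describes letters only, not binding. TATAAA, a form of the TATA box, was in 13.6% of all windows, and GGGCGG, the GC box bound by SP1, in 35.7%. No Magea window held either (0).

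Magea2, on probe ILMN_2824926, gave raw signals of 348, 371 and 278 on Δ3/Δ3 arrays 1, 2 and 3. On the Lox/Δ3 arrays they were 114, 146 and 143. The probe was detected on all 6 arrays, and the lowest Δ3/Δ3 signal was well above the highest Lox/Δ3 signal. After background correction and normalization its log2 level was 8.20 ± 0.34 in Δ3/Δ3 and 6.37 ± 0.47 in the Lox/Δ3 group (mean ± SD, n = 3 each), with a log2 difference of 1.83 ± 0.26 (SE) or 3.54-fold.

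Magea5, on probe ILMN_2914608, gave raw signals of 277, 268 and 239 on the Δ3/Δ3 arrays. Its Lox/Δ3 signals were 80.5, 116 and 110, and the first of these was not above background (detection p-value 0.161). The genotypes did not overlap. Its log2 level was 7.79 ± 0.19 for Δ3/Δ3 and 5.71 ± 0.64 for Lox/Δ3 (n = 3 each), a log2 difference of 2.08 ± 0.29 (SE) or 4.22-fold, the largest of the family. With no background correction the log2 difference was 1.43, and with the authors' scaled values 1.41. The spread among the Lox/Δ3 arrays came mostly from array 1, at 4.98 against 6.16 and 5.998 on the others.

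Magea8, whose annotated promoter window nearly matches that of Magea2, gave raw signals of 168, 199 and 149 on probe ILMN_2687002 in Δ3/Δ3 cells. In Lox/Δ3 cells it gave 78.2, 98.0 and 92.9, detected on arrays 2 and 3 only. Again all Δ3/Δ3 values lay above all Lox/Δ3 values. The log2 level was 6.99 ± 0.41 against 5.40 ± 0.42 (n = 3 each), a log2 difference of 1.58 ± 0.26 (SE) or 3.00-fold. It was 0.99 with no background correction and 0.98 with the authors' scaled values.

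The genes of the other locus also stood higher in Δ3/Δ3 cells. Magea4, on probe ILMN_2930242, gave raw signals of 150, 137 and 148 for Δ3/Δ3 and 91.9, 101 and 91.7 for Lox/Δ3, with array 1 of the latter below the detection limit. Its normalized Δ3/Δ3 values were close together, 6.64 ± 0.022 against 5.53 ± 0.26 on the log2 scale in the other genotype (n = 3 each, with SD), and the log2 difference was 1.11 ± 0.15 (SE), or 2.15-fold. Magea10, on its single probe ILMN_1216864, gave raw signals of 117, 95.4 and 91.4 for Δ3/Δ3 and 58.5, 67.7 and 61.0 for Lox/Δ3. Every Δ3/Δ3 array detected it and 0 of 3 Lox/Δ3 arrays did, so only a bound can be given. On the normalized scale of the main fit this was at least 1.23-fold higher in Δ3/Δ3 cells. For it the Δ3/Δ3 mean was set, on each Lox/Δ3 array, against the lowest value of a detected probe. The bound holds no sampling error and was not computed under other processing. On the raw scale 95.4 and 91.4 lay below the lowest detected signal of Lox/Δ3 array 1, 103. The measured log2 means of Magea10 were 5.77 ± 0.26 and 4.68 ± 0.11 (n = 3 each). Magea10 passed the filter only through the Δ3/Δ3 arrays, so a difference was built into its passing.

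Magea3 differed from the rest. Its probe ILMN_2767393 gave 103, 93.6 and 89.6 for Δ3/Δ3 and 90.6, 91.6 and 84.2 for Lox/Δ3. The genotypes overlapped, and all 6 signals lay near the detection limit, with 3 Δ3/Δ3 arrays and 1 Lox/Δ3 array above it. Its log2 level was 5.63 ± 0.14 against 5.35 ± 0.14 (n = 3 each), a log2 difference of 0.27 ± 0.14 (SE) or 1.21-fold.

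**Figure D1:**
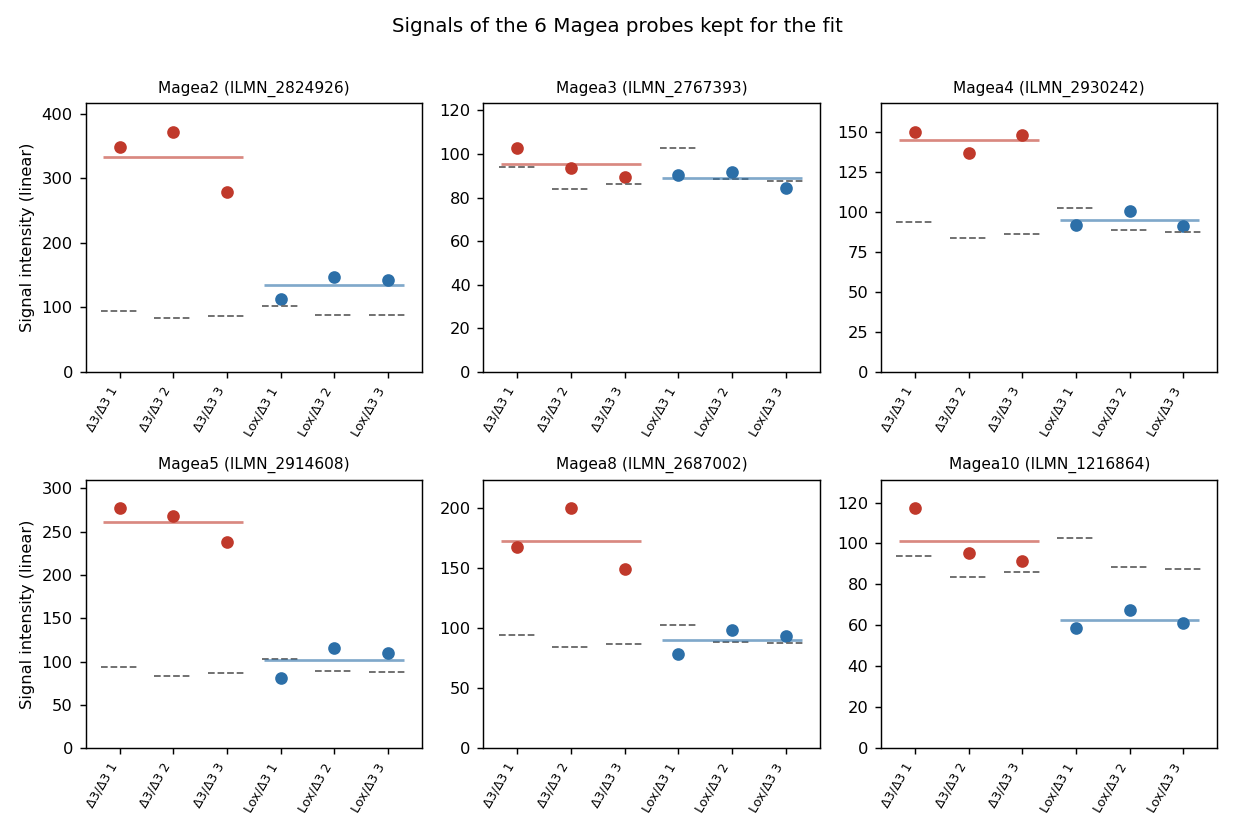
Raw signal intensity (linear) of the 6 Magea probes kept for the fit, 1 panel per probe, on each Δ3/Δ3 (red) and Lox/Δ3 (blue) array; solid lines are group means and dashed marks the lowest detected signal on that array. In every panel but Magea3 the Δ3/Δ3 points lie above all Lox/Δ3 points, and no Lox/Δ3 point of Magea10 reaches the detection mark.

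In 5 of the 6 tested members, all but Magea3, the normalized levels of the genotypes did not overlap, and in 11.3% of the 10711 tested genes the Δ3/Δ3 arrays lay above all Lox/Δ3 arrays. The family was chosen from this comparison, and Magea10 entered the fit only through the Δ3/Δ3 arrays, so nothing is read from this count.

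The 7 probes below the filter carry the rest of the family. Magea6, on its single probe ILMN_2694973, was the nearest to passing: it was detected on 1 array, Δ3/Δ3 array 2, with a signal of 120. The other Δ3/Δ3 signals were 91.0 and 78.0 and the Lox/Δ3 signals 56.4, 72.9 and 64.3, so the genotypes did not overlap although 5 arrays were below the detection limit. Just inside the filter stood Magea10, detected on 3 arrays. Magea1, on probe ILMN_2763422, was detected nowhere, with signals of 51.6, 49.0 and 48.4 for Δ3/Δ3 and 55.4, 56.8 and 50.6 for Lox/Δ3.

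For 4 of the genes another probe was present that did not pass. The other Magea5 probes disagreed with each other: ILMN_1233373 gave 79.8, 80.4 and 76.5 for Δ3/Δ3 and 55.7, 59.8 and 66.8 for Lox/Δ3 with no overlap, whereas ILMN_2596441 gave 86.2, 67.1 and 74.5 against 83.4, 76.7 and 72.3. Neither was detected on any array. The other Magea2 probe, ILMN_1223576, was likewise undetected, with 46.0, 52.9 and 53.3 for Δ3/Δ3 and 63.0, 54.5 and 55.4 for Lox/Δ3, where the kept Magea2 probe was detected everywhere. For Magea4 the undetected probe ILMN_2772977 gave 60.9, 52.8 and 51.2 against 56.5, 63.4 and 58.1, and for Magea8 ILMN_2770293 gave 60.6, 62.9 and 66.4 against 64.0, 59.0 and 56.7. The levels of these probes lie in the background and no fold is given for them. Of the 7 unkept probes, 6 were detected on no array. Raw signals were all higher in Δ3/Δ3 cells for 2 (of Magea5 and Magea6), as for 2.18% of all unkept probes. For the Magea2 probe ILMN_1223576 they were all lower in Δ3/Δ3 cells, though its normalized levels overlapped. The family was chosen from this comparison and these signals lay in or near the background, so nothing is read from these counts. Probe sequences were not used here, so which transcripts of this family each probe binds was not examined, and a signal named for Magea2, Magea5 or Magea8 may include transcript of a close relative.

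**Figure D2:**
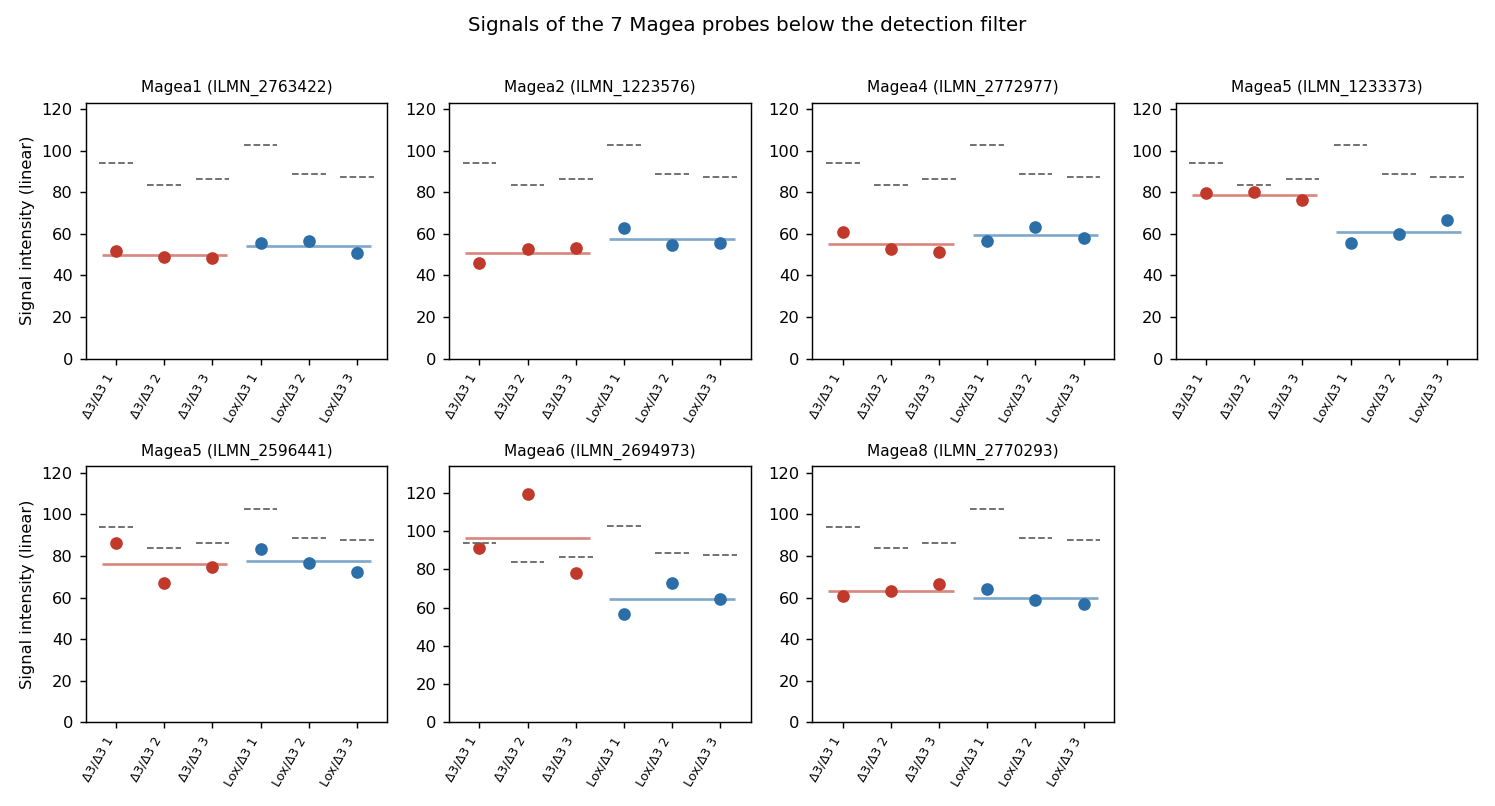
Raw signal intensity (linear) of the 7 Magea probes below the detection filter on each Δ3/Δ3 (red) and Lox/Δ3 (blue) array; solid lines are group means and dashed marks the lowest detected signal on that array. The Magea6 signal of 120 on Δ3/Δ3 array 2 is the single point above its mark.

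On the normalized log2 scale all 6 tested members had their lowest Lox/Δ3 value on Lox/Δ3 array 1, as had 34.3% of the 10711 genes tested. That array also had the fewest detected probes, 18506 against 19108 to 19799 on the others, and the highest detection limit, a signal of 103 against 83.7 to 94.0, and the part of these in the low values was not tested. Of the 6 kept probes, 4 had their lowest raw Lox/Δ3 signal on it too. Magea2 and Magea8 had their highest value on Δ3/Δ3 array 2 and their lowest Δ3/Δ3 value on Δ3/Δ3 array 3, at 8.55 and 7.86 for Magea2 and 7.44 and 6.66 for Magea8. Magea10 instead was highest on Δ3/Δ3 array 1, at 6.04, and Magea4 hardly varied within that genotype. Pearson's r over the 6 arrays lay between 0.852 and 0.996 for the 15 pairs of tested members, the highest for Magea2 with Magea8, and it holds the genotype difference by which the family was chosen. After each genotype's mean was removed r lay between 0.333 and 0.977, again highest for Magea2 with Magea8 and lowest for Magea4 with Magea10.

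**Figure D3:**
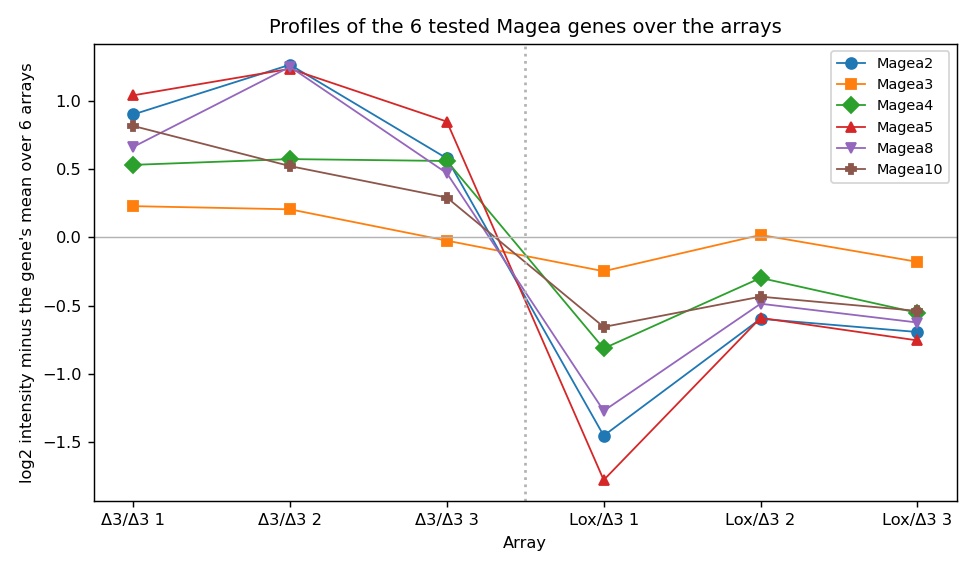
Normalized log2 intensity of the 6 tested Magea genes on each array, minus the gene's own mean over the 6 arrays; lines only join the points of a gene, as arrays of 1 genotype have no order. Magea5 spans the widest range and Magea3 the narrowest, and every gene has its lowest point on Lox/Δ3 array 1.

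The genes whose log2 profile over the 6 arrays was most like that of each member were picked by Pearson's r, 3 for each, so their genotype differences follow from the choice and are given without a test. Closest to Magea2 were Tnni2, which encodes fast skeletal troponin I (r = 0.999), the tetraspanin gene Tspan8 (r = 0.995) and Ly6e (r = 0.993), with log2 differences of 1.37, 1.37 and 0.68. Tnni2 was also among the closest to Magea5 (r = 0.996), after Slamf9 (r = 0.997) and Hebp2 (r = 0.996). Closest to Magea8 were the amino acid transporter gene Slc36a3 (r = 0.998), the surrogate light chain gene Igll1 (r = 0.997) and Erich6 (r = 0.995). Magea4 was closest to Pcolce2 (r = 0.997), Minar2 (r = 0.996) and Crabp1, which encodes a retinoic acid binding protein (r = 0.996). Magea10 was closest to Tmem248 (r = 0.999), the sterol isomerase gene Ebp (r = 0.995) and Hecw2 (r = 0.994), and Magea3 to Gpr22 (r = 0.994), Krtdap (r = 0.989) and Fetub (r = 0.988). Of these 17 genes 1, Ebp, lies on chromosome X, as do 381 of the 10711 genes tested.

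The question of whether the higher signals extended to the surrounding chromosome was put to the 5 nearest tested genes on each side of the Magea genes, 20 genes in all. None was called at an adjusted p under 0.05 in either direction (0; limma, Benjamini-Hochberg over all 10711 tested genes), while 3 had an unadjusted p under 0.05, or 15.0%, against 18.2% of all genes tested. Their median log2 difference was 0.078, with 13 higher and 7 lower, and the median over all genes was -0.025 and over the 381 tested X-linked genes 0.10. Of those X-linked genes, the Magea genes included, 4.46% were called, against 1.31% of all genes. The Magea genes were chosen from this comparison and add to that share, so nothing is read from it. Of the tested genes that border the larger locus, Spin2c stood at -0.016 ± 0.16 and Acot9 at 0.0074 ± 0.13 (log2 difference ± SE). Beside Magea4 and Magea10, Prrg3 stood at -0.098 ± 0.13 and Cetn2 at 0.19 ± 0.14. These 4 border genes were chosen for their position after the values were seen.

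The neighbour with the smallest p was Xlr4a, a member of the X-linked lymphocyte-regulated family, on the far side of the Magea4 and Magea10 locus. Its log2 values were 12.02, 11.84 and 12.05 for Δ3/Δ3 and 10.49, 10.96 and 11.37 for Lox/Δ3, with no overlap. The log2 difference of 1.03 ± 0.22 (SE) did not pass in the fit over all genes (limma adjusted p = 0.0628). It passed without Lox/Δ3 array 3 (limma adjusted p = 0.0272), with the authors' scaled values (0.0357) and with a replicate block (0.0421). Under every other alternative it did not pass. The limma adjusted p was 0.166, 0.141 and 0.184 without Δ3/Δ3 array 1, 2 or 3. Without Lox/Δ3 array 1 or 2 it was 0.112 and 0.135, and with no detection filter 0.135. Prdx4, a peroxiredoxin gene near Magea5, had a log2 difference of 0.37 ± 0.12 (SE; limma adjusted p = 0.174). Pnma5, named after the values were seen, stood at 0.42 ± 0.15 (limma adjusted p = 0.200). The Δ3/Δ3 arrays lay above all Lox/Δ3 arrays for 4 of the 20 neighbours and below for 0. Of all genes 23.8% did not overlap in one or the other direction.

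**Figure D4:**
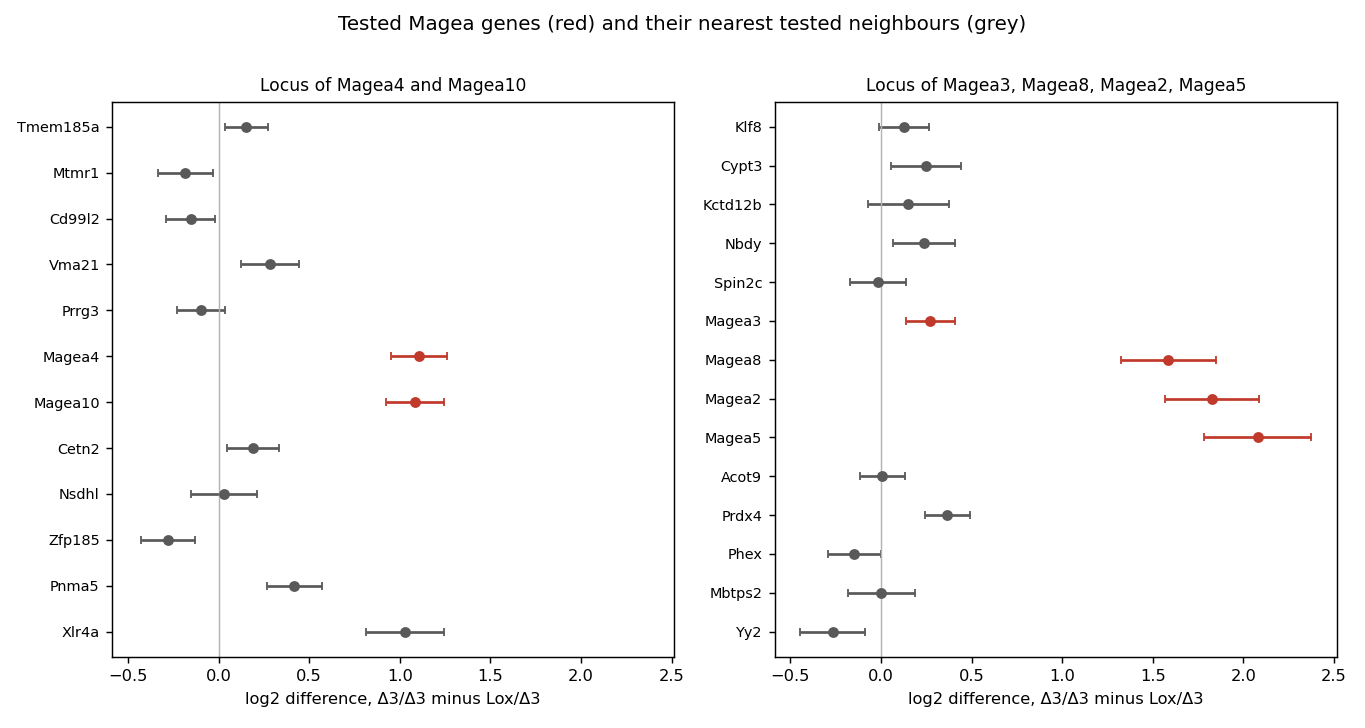
Log2 difference between genotypes (Δ3/Δ3 minus Lox/Δ3, with standard error) of the tested Magea genes (red) and their nearest tested neighbours (grey), in chromosome order from top to bottom at each of the 2 loci. Of the grey points Xlr4a at 1.03 lies farthest from 0, followed by Pnma5 at 0.42 and Prdx4 at 0.37. The other grey points lie between -0.28 and 0.28, and Magea3 at 0.27 lies among these.

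Other germ-cell genes that are silenced by promoter methylation in somatic cells, or lie on chromosome X, were set beside the family. Of 51 listed genes 26 were tested, and 2 rose and 0 fell at the same threshold in limma, where 1.03% of all genes were called higher and 1.31% in either direction. At an unadjusted p under 0.05 in limma stood 20 of the 26, or 76.9%, against 18.2% of all genes. These 20 went in both directions. Mov10l1, Ddx4, Syce1, Taf7l and Tex11, named here for their direction, were lower in Δ3/Δ3 cells and the rest of the 20 higher. The list was chosen with earlier results of these arrays known, and it also holds Xlr4a, already counted among the neighbours. Usp26, an X-linked testis gene of a ubiquitin-specific protease, rose 2.93-fold. Its log2 values were 11.88, 11.72 and 11.84 for Δ3/Δ3 and 9.93, 10.74 and 10.12 for Lox/Δ3, a difference of 1.55 ± 0.21 (SE; limma adjusted p = 0.0281). Xlr5a, a relative of Xlr4a, rose 2.36-fold, from 6.35, 6.82 and 6.79 in Lox/Δ3 to 8.25, 7.53 and 7.89 in Δ3/Δ3 cells (limma adjusted p = 0.0407). Xlr5a no longer passed when Lox/Δ3 array 1 (limma adjusted p = 0.0974) or array 2 (0.0651) was left out, and leaving out any 1 Δ3/Δ3 array ended both calls, with adjusted p from 0.0967 to 0.122 in limma. With no filter on weak probes the limma adjusted p was 0.0874 for Usp26 and 0.105 for Xlr5a. Leaving out Lox/Δ3 array 3 gave 6 calls in this list. Without Δ3/Δ3 array 1, 2 or 3 no gene of the whole table was called (0), although 1549, 1804 and 1606 genes had an unadjusted p under 0.05 in limma, and with no filter 24 genes were called in all.

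The median log2 difference of the 26 genes was 0.46, with 19 higher and 7 lower, against -0.025 over all genes. Of the 12 X-linked genes among them 10 were higher, with a median of 0.62, and of the 14 autosomal genes 9 were higher, with a median of 0.27. The Δ3/Δ3 arrays lay above all Lox/Δ3 arrays for 14 of the 26 and below for 4, where 23.8% of all genes did not overlap in one or the other direction. The higher genes and the 14 include Ssxb2, which passed the filter only through the Δ3/Δ3 arrays. The germ-cell RNA helicase gene Ddx4 stood at -0.37 ± 0.13 and the RNA-binding protein gene Dazl at 0.23 ± 0.18 (log2 difference ± SE; limma adjusted p = 0.185 and 0.562).

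Genes of MAGE partners, of DNA and histone methylation and of other regulators such as Sp1, Ets1 and Ctcf gave no call in either direction. This was 0 of 24 tested, of 33 listed names in which Hells also stood as Lsh, with 1.31% of all genes called. At an unadjusted p under 0.05 in limma stood 5 of the 24, or 20.8%, near the 18.2% of all genes. Their median log2 difference was -0.076, with 7 higher and 17 lower. Tet1, which oxidizes 5-methylcytosine, stood at -0.59 ± 0.15 and Ehmt2, which methylates lysine 9 of histone H3, at -0.47 ± 0.15 (SE; limma adjusted p = 0.0913 and 0.158). Trim28, the ligase partner of human MAGE-A proteins, was named after its values were seen: its log2 values were 13.96, 13.88 and 14.06 for Δ3/Δ3 and 14.5, 14.23 and 14.3 for Lox/Δ3, a difference of -0.38 ± 0.13 (SE; limma adjusted p = 0.181).

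The cells' labelled type was checked by its markers. All 6 embryonic stem cell markers (Pou5f1, Nanog, Sox2, Zfp42, Esrrb and Dppa5a) were tested and none was called in limma (0, with 0 at an unadjusted p under 0.05). Their summed linear level was 79166 to 81104 in Δ3/Δ3 and 82416 to 89632 in Lox/Δ3 cells. Of 7 germ cell markers, Sycp3, Tnp1 and Prm1 were detected on no array, and the summed level of the 4 tested (Ddx4, Dazl, Piwil2 and Zp3) overlapped, at 1990 to 2396 and 1732 to 2422. Single markers went different ways and none was called: Ddx4 and Piwil2 had log2 differences of -0.37 and -0.47 (limma unadjusted p = 0.0207 and 0.0313), and Dazl and Zp3 of 0.23 and 0.23 (0.242 and 0.185). Of 7 fibroblast markers, which would show feeder cells, 5 were detected on no array (Col1a2, Col3a1, Lum, Postn and Twist2). The sum of the other 2, Thy1 and Col1a1, was 872 to 1089 in Δ3/Δ3 and 440 to 499 in Lox/Δ3 cells, but they went opposite ways. Thy1 had a log2 difference of 1.61 ± 0.30 (SE; limma adjusted p = 0.0522) and the collagen gene Col1a1 of -0.67 ± 0.57 (0.596), and the part of such cells in the Magea difference was not tested. Of 5 trophectoderm markers, Elf5 and Hand1 were detected on no array and Cdx2 did not pass the filter. Krt7 and Krt8 were tested, with sums of 2309 to 5631 in Δ3/Δ3 and 4179 to 6506 in Lox/Δ3 cells. Both were lower in Δ3/Δ3 cells and neither was called. Krt7 stood at -0.73 ± 0.22, with no overlap of the genotypes, and Krt8 at -0.71 ± 0.36 (log2 difference ± SE, limma unadjusted p = 0.0114 and 0.0818). In bulk RNA a larger number of cells with Magea transcript and more transcript per cell cannot be told apart.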

How the data were processed

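Total RNA of 3 Δ3/Δ3 and 3 Lox/Δ3 samples was labelled as biotinylated cRNA, per the labels' protocols, and read on Illumina bead arrays. The authors deposited non-normalized signal intensity values for 45281 probes with a detection p-value beside each signal. Their value table holds the same intensity values times 1 constant per array (11.9 to 13.6), setting each median to 1000. The scanner software is not given in the sources used here. The lowest signals were 36.0 to 39.7 and the medians 73.8 to 83.7, so no background had been subtracted.

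Probes were named from the platform annotation, updated through RefSeq (34885 with 1 symbol, 34818 matched). Signals were corrected with limma's nec (background from the detection p-values, offset 16, which pulls folds of weak genes toward 1), taken to log2 and quantile normalized. Probes detected at p under 0.05 on at least 3 arrays were kept (19652), 1 per gene with the highest mean (10711 genes). Genotypes were compared with lmFit and eBayes, two-sided, with Benjamini-Hochberg adjustment over all genes. Promoter windows were aligned globally with free end gaps. R 4.3.3, limma 3.58.1, Python 3.11.15, matplotlib 3.10.9 and Biopython 1.88 were used. The fit was tested on simulated data.

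The number of arrays limits the precision. The members, lists, tests and alternatives were chosen with earlier results of these data known. Genes were named by a rule: all Magea genes and Kdm1a, up to 4 called members of each list or otherwise the 2 with the smallest p, 3 most alike genes per tested member and the cell type markers. The alternatives were other background correction, normalization, values, detection filters and probe averaging, a replicate block and leaving out each array.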

Additional observations from a re-analysis of the deposited data

How the results depend on the processing

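The log2 differences of the 6 tested Magea genes kept their positive sign under every alternative that could be run. With detection required on all 6 arrays only Magea2 had a value, and it was the same. Values were also the same with no detection filter, with probe averaging and with a replicate block. Each gene had 1 kept probe to average, and a block leaves the mean difference of a balanced design unchanged. Neither averaging nor the block could therefore move the sign. Without background correction the differences were 1.38 for Magea2, 0.66 for Magea4, 1.43 for Magea5, 0.99 for Magea8 and 0.73 for Magea10. With the authors' scaled values, from which no background is subtracted either, they were 1.35, 0.66, 1.41, 0.98 and 0.74. For Magea10, which no Lox/Δ3 array detected, these are differences of measured means, and only its bound is read. Leaving out 1 array gave 1.54 to 2.00 for Magea2, 0.22 to 0.35 for Magea3, 0.97 to 1.24 for Magea4, 1.69 to 2.31 for Magea5, 1.34 to 1.75 for Magea8 and 0.95 to 1.20 for Magea10. In limma 140 genes were called over all genes, 24 with no detection filter, 80 with detection on all 6 arrays and 0 to 282 on leaving out 1 array; the 226 called probes became 0 to 401. The germ-cell list had 2 calls, 4 with the authors' values, 0 with no filter and 0 to 6 on leaving out 1 array. The neighbours had 0 calls, 1 with the authors' values (Xlr4a) and 0 to 1 on leaving out 1 array. The partner list had 0 to 1, the call being Prkaa2 without Lox/Δ3 array 3. Xlr4a stands in both the germ-cell and the neighbour list, so each of its calls is counted in both. The causes were not tested. With the replicate number as a block 373 genes, 601 probes, 7 germ-cell genes and 1 neighbour (Xlr4a) were called, and the Magea differences did not change. The same-numbered arrays correlated in their deviations at 0.358 for number 1, 0.0668 for number 2 and 0.402 for number 3. Against arrays of another number r was -0.505 to 0.290, -0.197 to 0.132 and -0.374 to -0.181, in the same order. For numbers 1 and 3 the same-numbered r was thus the higher. The main fit had no block, and whether the numbers pair the samples was not tested. Signal near background limits Magea1, Magea3, Magea6 and Magea10. It also limits the Lox/Δ3 levels of Magea4, Magea5 and Magea8, undetected on Lox/Δ3 array 1, and so the size of their differences.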
